A study of Mus musculus with 28 samples.

Results

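The late-rising genes are 208 genes whose transcripts stood low in mouse embryonic stem cells for the first 48 h after withdrawal of 2iL and high at 120 h. They were chosen by measured values, from a table of 30386 genes in CPM, each gene's share of its library's counts scaled to a common total. A gene had to reach a mean of 20 CPM over the 4 experiments at 120 h, and its 120 h mean plus 1 had to be at least 4 times the mean plus 1 in 2iL, at 24 h and at 48 h. Of 217 genes that met both thresholds, 9 were left out by name, and the remaining 208 all passed the filter on low counts and were tested. Their levels in 2iL and at 24 h, 48 h and 120 h chose them and are given as a description with no test. The group marker Irs4 is among them.

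The cells are E14 mouse embryonic stem cells, 1 cell line, kept on gelatin in N2B27, a serum-free medium. 2iL is CHIR99021, an inhibitor of the kinase GSK3, PD0325901, an inhibitor of the kinase MEK, and the cytokine LIF. The groups are cells in 2iL (withdrawal time 0), cells withdrawn from 2iL for 24, 48, 96 or 120 h, and cells withdrawn for 48 or 96 h that then received 2iL again for 24 h, written 48 h + 2iL and 96 h + 2iL. The 120 h time rests on the sample labels and the series' design text, while the collection times listed in the treatment protocol end at 96 h of withdrawal. Each of the 7 groups holds 4 libraries, 1 from each of the experiments numbered 1 to 4. The labels do not state what else separates the experiments. The p-values measure the spread between libraries within groups, estimated over all 7 groups together and not only over the 2 groups compared. RNA was sequenced from the 3′ ends of polyadenylated transcripts, in bulk. In bulk RNA, fewer cells of a type and less RNA per cell cannot be told apart.

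In 2iL the active WNT pathway and the blocked ERK pathway hold stem cells in the naive state, that of the early epiblast. Without 2iL in N2B27, cells leave that state, pass through a stage like the epiblast after implantation, and many then become neuroectoderm, the tissue from which the neural plate forms. Neuroectodermal cells switch on transcription factors that pattern the neural tube, adhesion and guidance molecules, and growth factor pathways. Irs4 is an adaptor protein that docks to the activated insulin and IGF1 receptors and passes their signal to the kinase PI3K. Irs4 differs from its better known relatives Irs1 and Irs2 in its narrow pattern of expression.

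Libraries held 1554830 to 2828694 counts on genes, so 1 count equals 0.354 to 0.643 CPM. Experiment 3 stood apart at the late times. It gave the highest value of 183 of the 208 genes at 96 h, of 146 at 120 h and of 152 in 96 h + 2iL. In the median gene its level was 2.04 times the mean of the other 3 experiments at 96 h, 1.66 times in 96 h + 2iL and 1.52 times at 120 h (values plus 1 CPM). Experiment 1 was the lowest for 142 of the genes at 120 h. Values of single libraries are given below in the order of experiments 1, 2, 3 and 4.

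The median level of the 208 genes was 2.88 ± 0.51 CPM in 2iL (mean ± SD of the library medians, n = 4, as below), 2.79 ± 0.38 at 24 h and 4.63 ± 0.37 at 48 h. It was 25.3 ± 12.2 at 96 h and 44.6 ± 13.1 at 120 h. With 2iL returned it was 5.96 ± 1.05 in 48 h + 2iL and 32.1 ± 12.5 in 96 h + 2iL. The library medians at 96 h (17 to 43.2), at 120 h (30.0 to 60.8) and in 96 h + 2iL (21.1 to 48.6) overlapped one another, and all lay above every library of the other 4 groups. Together the genes took 0.12% of all counts in 2iL and 1.65% ± 0.58 at 120 h. By 96 h, 94 of the 208 genes already stood at 4 times or more of each early group, and 201 had a higher mean at 120 h than at 96 h, 153 of them in 4 of 4 experiments. The 7 with a higher mean at 96 h were Arrb1, Jakmip2, Kif1a, Lmx1b, Nfasc, Sox9 and Syt11.

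**Figure D1:**
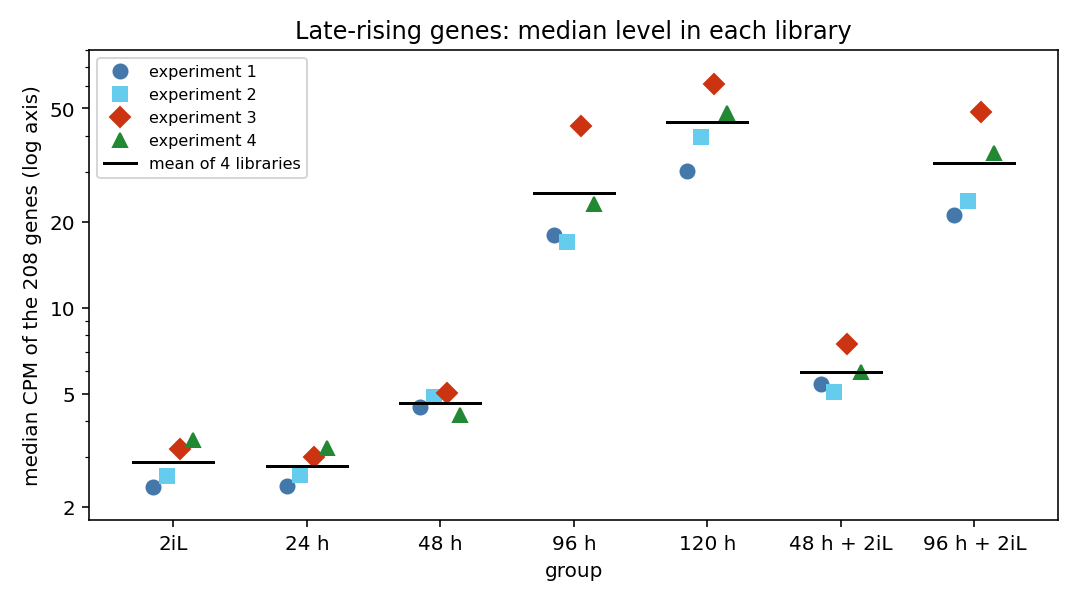
Median CPM of the 208 late-rising genes in each library (log axis) for the 7 groups, with 1 symbol per experiment and a bar at the mean of the 4 libraries. The medians lie at 5.01 CPM or less in 2iL, at 24 h and at 48 h, between 17 and 60.8 at 96 h, at 120 h and in 96 h + 2iL, and experiment 3 is the highest of the 4 in these 3 late groups.

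Irs4 (chromosome X, 141710998 to 141725263, reverse strand, GRCm38) had few counts before 96 h. It stood at 0, 0.429, 0 and 0.572 CPM in 2iL, at 1.19, 0.866, 2.99 and 1.29 at 24 h and at 3.47, 2.78, 2.36 and 2.39 at 48 h. It stood at 25.2, 21.9, 68.9 and 17.7 CPM at 96 h and at 39.1, 61.5, 95.8 and 60.9 at 120 h. In 96 h + 2iL it was at 3.48, 6.24, 7.52 and 1.26 CPM, below every library of 96 h and of 120 h and overlapping the libraries of 24 h and 48 h. In 48 h + 2iL it was at 0.49, 0.423, 0 and 0.458 CPM, within the range of the 2iL libraries.

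Irs4 fell from 33.4 ± 23.8 CPM at 96 h to 4.62 ± 2.81 in 96 h + 2iL (mean ± SD, n = 4). The returned cells are also 24 h older than those at 96 h, and the effects of 2iL and of time cannot be told apart in this comparison. The log2 fold change was -2.78 ± 0.41 (± standard error, as below) with an adjusted p of 1.79e-05 in edgeR's quasi-likelihood test with Benjamini-Hochberg adjustment over 11080 genes, the test behind every adjusted p here. The gene was called, that is, its adjusted p was under 0.05, in 17 of 17 alternative analyses. Its mean in 96 h + 2iL plus 1 was 0.0861 of that at 120 h, the lowest ratio of the 208 genes. Against 48 h + 2iL it was still higher (3.57 ± 0.75, adjusted p = 0.000609). An antisense gene, Gm15295, shares exonic bases with Irs4 and had a count in 0 of 28 libraries.

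The bases upstream of 4 of the genes are shown as examples of opposite changes in 96 h + 2iL against 96 h, chosen after their values were seen: Irs4 and the ephrin receptor Ephb1 fell, and the WNT feedback gene Nkd1 and the ephrin Efnb1 rose. The sequences end at the RefSeq transcription start (GRCm38.p6), 5′ to 3′ on the gene's strand, with CG dinucleotides in capitals. For Irs4 the 46 bases next to that start, which GENCODE M21 places in the first exon, are left out. The Nkd1 start is one that lies inside the GENCODE gene. The windows are chrX:141725264-141725467 for Irs4 (reverse strand), chr9:102354694-102354943 for Ephb1 (reverse strand), chr8:88527383-88527632 for Nkd1 (forward strand) and chrX:99135811-99136060 for Efnb1 (forward strand).
Irs4: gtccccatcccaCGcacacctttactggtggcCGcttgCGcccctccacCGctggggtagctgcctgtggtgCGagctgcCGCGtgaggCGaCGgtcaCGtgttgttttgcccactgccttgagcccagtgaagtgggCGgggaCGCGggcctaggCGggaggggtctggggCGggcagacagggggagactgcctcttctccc
Ephb1: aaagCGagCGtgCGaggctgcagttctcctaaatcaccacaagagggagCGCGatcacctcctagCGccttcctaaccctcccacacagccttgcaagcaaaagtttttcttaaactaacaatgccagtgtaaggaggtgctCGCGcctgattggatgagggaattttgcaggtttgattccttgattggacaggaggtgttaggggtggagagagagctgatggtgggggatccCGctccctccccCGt
Nkd1: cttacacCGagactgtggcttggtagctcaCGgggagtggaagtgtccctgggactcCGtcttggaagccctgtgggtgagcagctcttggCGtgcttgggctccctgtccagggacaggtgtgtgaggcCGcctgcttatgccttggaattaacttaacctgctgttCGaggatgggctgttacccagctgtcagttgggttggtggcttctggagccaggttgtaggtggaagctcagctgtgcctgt
Efnb1: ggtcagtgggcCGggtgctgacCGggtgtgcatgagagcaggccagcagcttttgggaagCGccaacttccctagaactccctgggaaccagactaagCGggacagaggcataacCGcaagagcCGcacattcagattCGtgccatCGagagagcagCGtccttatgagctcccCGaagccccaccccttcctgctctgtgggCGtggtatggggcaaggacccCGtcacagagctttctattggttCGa
Irs4 has 15 CG dinucleotides in 204 bases and 69.1% GC. Of the 250 bases shown for each of the others, Ephb1 has 10 and 54.0% GC, Nkd1 has 6 and 58.4% GC, and Efnb1 has 13 and 60.0% GC.

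Of 39 genes listed for insulin and IGF signalling, 36 were tested and 5 are late-rising, among them the adaptors Irs4, Irs2 and Grb10 and the secreted IGF-binding protein gene Igfbp5. Between 2iL and 120 h, where 24.6% of all genes tested were called higher and 22.6% lower, 14 of the 36 were called higher and 8 lower. This comparison shares groups with the choice of the 5 members, so the count is a description. In 96 h + 2iL against 96 h, Irs2 (74.6, 72.5, 83.6 and 83.7 CPM at 96 h, 57.1, 55.3, 55.1 and 47.2 in 96 h + 2iL) fell (-0.55 ± 0.18, adjusted p = 0.0418), and whether it differs from Irs4 in this was not tested. Its call was lost in 13 of 17 alternatives, without any 1 of the 4 experiments among them (highest adjusted p = 0.169). Grb10, an adaptor that restrains the insulin receptor, was at 35.9, 22.7, 78.1 and 46.3 CPM at 96 h and 38.7, 42, 97.8 and 111 in 96 h + 2iL, and was not called (0.66 ± 0.40, adjusted p = 0.333), but was called with the replicate block (adjusted p = 0.0405). Igfbp5 was not called either (0.93 ± 0.42, adjusted p = 0.167).

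Over the whole insulin and IGF list in that comparison, 1 gene was called higher and 5 lower, against 4.02% of all genes tested called higher and 5.23% called lower. Besides Irs4 and Irs2 the lower genes included the transcription factor gene Foxo1 (-1.69 ± 0.31, adjusted p = 0.000488) and the secreted Igfbp2 (-1.20 ± 0.25, adjusted p = 0.00171). The gene called higher was the kinase gene Gsk3b, whose product is a target of CHIR99021 (0.45 ± 0.13, adjusted p = 0.0238). The list's median log2 fold change was 0.01 and that of all genes tested was 0.00.

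How far cells of the same age differ when the last 24 h are spent in 2iL is read from 96 h + 2iL and 120 h. The 120 h values chose the genes, a choice that favours ratios under 1, so no test is read from it. The median ratio of 96 h + 2iL to 120 h was 0.763 (quartiles 0.615 to 0.924, group means plus 1), and over all genes tested it was 0.969. Within experiments the median ratio was 0.753, 0.631, 0.835 and 0.767. Of the 208 genes, 174 stood at 0.5 or more of their 120 h level, 37 at 1 or more, 34 under 0.5 and 9 under 0.25. Against 2iL itself the median ratio of 96 h + 2iL was 8.43, and over all genes tested it was 1.05. At 4 times or more stood 179 of the 208 genes. Low levels in 2iL chose the genes, so both numbers follow in part from the choice and are a description.

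Libraries of 96 h + 2iL lay all below those of 120 h for 17 of the 208 genes (8.17%), against 4.75% of the genes tested. They lay all above for Nkd1 alone (0.481%), against 2.2%. The 17 are Irs4, Irs2, Sox9, Lmx1b, Id2, Wnt7b, Ephb1, Cdh4, Cdh6, Ncan, Nfasc, Iglon5, Jakmip2, Limd2, Lpar6, Fam135a and Dcaf12l1. For comparison, the 96 h libraries lay all below those of 120 h for 23 of the genes (11.1%), against 4.34%.

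**Figure D2:**
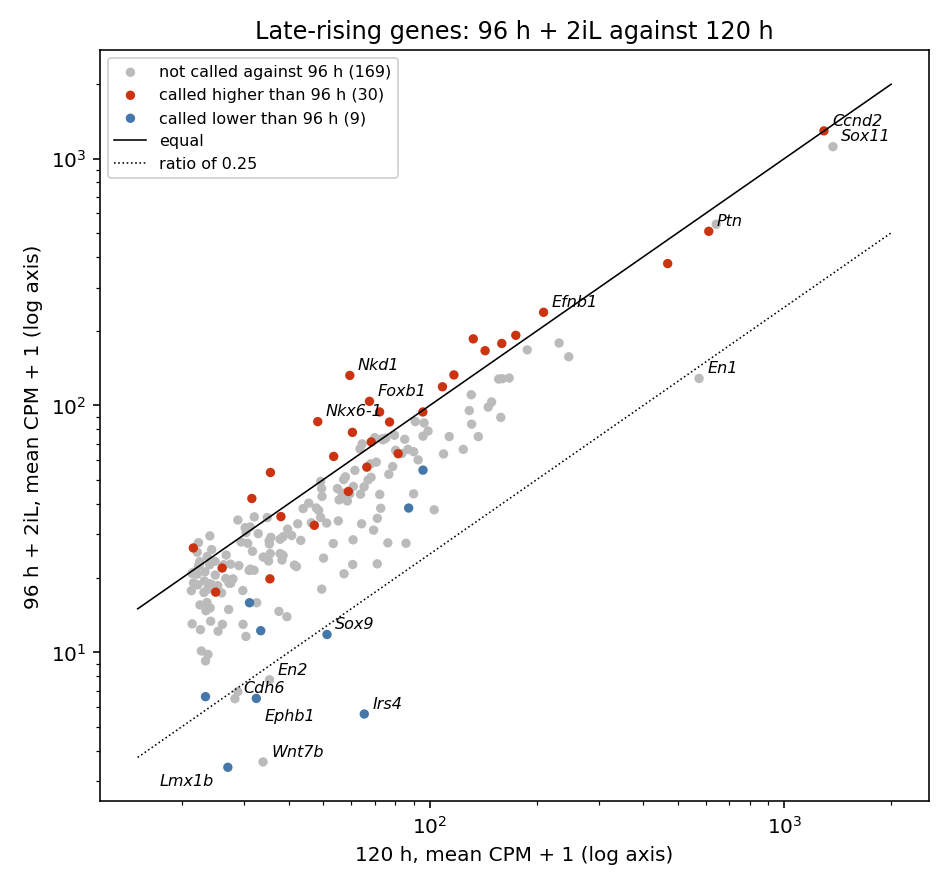
Mean CPM plus 1 of each of the 208 genes in 96 h + 2iL (vertical, log axis) against 120 h (horizontal, log axis), coloured by the call of 96 h + 2iL against 96 h, with lines at equal levels and at a ratio of 0.25. Under the line of equal levels lie 171 of the genes (median ratio of the 208 genes 0.763), 34 of them at a ratio under 0.5. By this ratio Irs4, Wnt7b and Lmx1b lie lowest and Nkd1 highest.

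The comparison of 96 h + 2iL with 96 h uses no group that entered the choice of the genes, but is not independent of it. The returned cells are 24 h older than the 96 h cells and match the 120 h cells in age. High values at 120 h chose the genes, and 201 of the 208 had a higher mean there than at 96 h. Higher calls are therefore favoured in advance, and the effects of 2iL and of time cannot be told apart. Below, rose and fell mean called higher or lower in this comparison. Of the 208 genes, 30 were called higher (14.4%, against 4.02% of all genes tested) and 9 lower (4.33%, against 5.23%). For the other 169 a difference was not shown, although 55 of them were called in at least 1 of the alternative analyses, 30 with the experiment as a replicate block. The median log2 fold change of the genes was 0.42 (quartiles -0.01 to 1.01), that of all genes tested was 0.00, and 155 of the 208 lay above 0.

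These counts move with experiment 3 and with the fit. Without experiment 3, 53 of the genes were called higher and 10 lower, and without only its 96 h library, 69 and 9. Without experiment 4 the counts were 7 and 5, and without experiment 2 they were 9 and 6. With the experiment as a replicate block they were 58 and 11, and all 39 genes called without the block were also called with it. Of the 39, 10 kept their call in every one of the 17 alternatives: Irs4, Lmx1b, Sox9, Ephb1 and Jakmip2 among the lower genes, and Nkd1, Efnb1, Pam, Nrep and Mllt3 among the higher. The other 29 lost it in at least 1, and 27 of these did so without experiment 4 and 24 without experiment 2. Experiment 3 alone moved in the called direction for 29 of the 30 higher and 9 of the 9 lower genes, and its change was smaller than the fitted one for 26 of the 30.

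The marker lists of surface ectoderm and of naive pluripotency were lowest in experiment 3 at 96 h, at 120 h and in 96 h + 2iL. Not every list was summed by experiment, and no other list that was summed so was lowest in experiment 3 in each of these groups. The neural crest list was lowest there at 120 h (40.9 CPM), and the list of WNT and beta-catenin targets in 96 h + 2iL (999.6 CPM). The list of radial glia and neural progenitors was highest in experiment 3 in each, at 2647 CPM at 96 h, 3975 at 120 h and 3458 in 96 h + 2iL. At 96 h the neural crest list summed to 47.6, 39.2, 46.4 and 46.3 CPM and the mesoderm list to 393, 189, 437 and 315. A list of 14 genes of surface ectoderm and epithelium, 9 of them tested, summed to 1436, 1501, 527 and 1182 CPM at 96 h, 888, 739, 119 and 436 at 120 h, and 864, 824, 80.7 and 269.7 in 96 h + 2iL, lowest in experiment 3 in each group. In 96 h + 2iL against 96 h, 4 of the 9 were called lower (Cldn6, Cldn7, Epcam, Esrp1) and 1 higher (Tfap2c), and Krt5 was at 0 at 120 h. The list's median log2 fold change was -1.19, and over all genes tested 4.02% were called higher and 5.23% lower. Of 14 naive pluripotency genes 6 were called higher and 0 lower (median log2 fold change 1.27), with sums of 412, 252, 143 and 262 CPM at 96 h, 179, 142, 109.7 and 133 at 120 h and 998, 866, 159.9 and 480.3 in 96 h + 2iL. In 2iL the sum was 3041 to 3610 CPM. The part of these markers in the late-rising genes' levels was not tested.

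**Figure D3:**
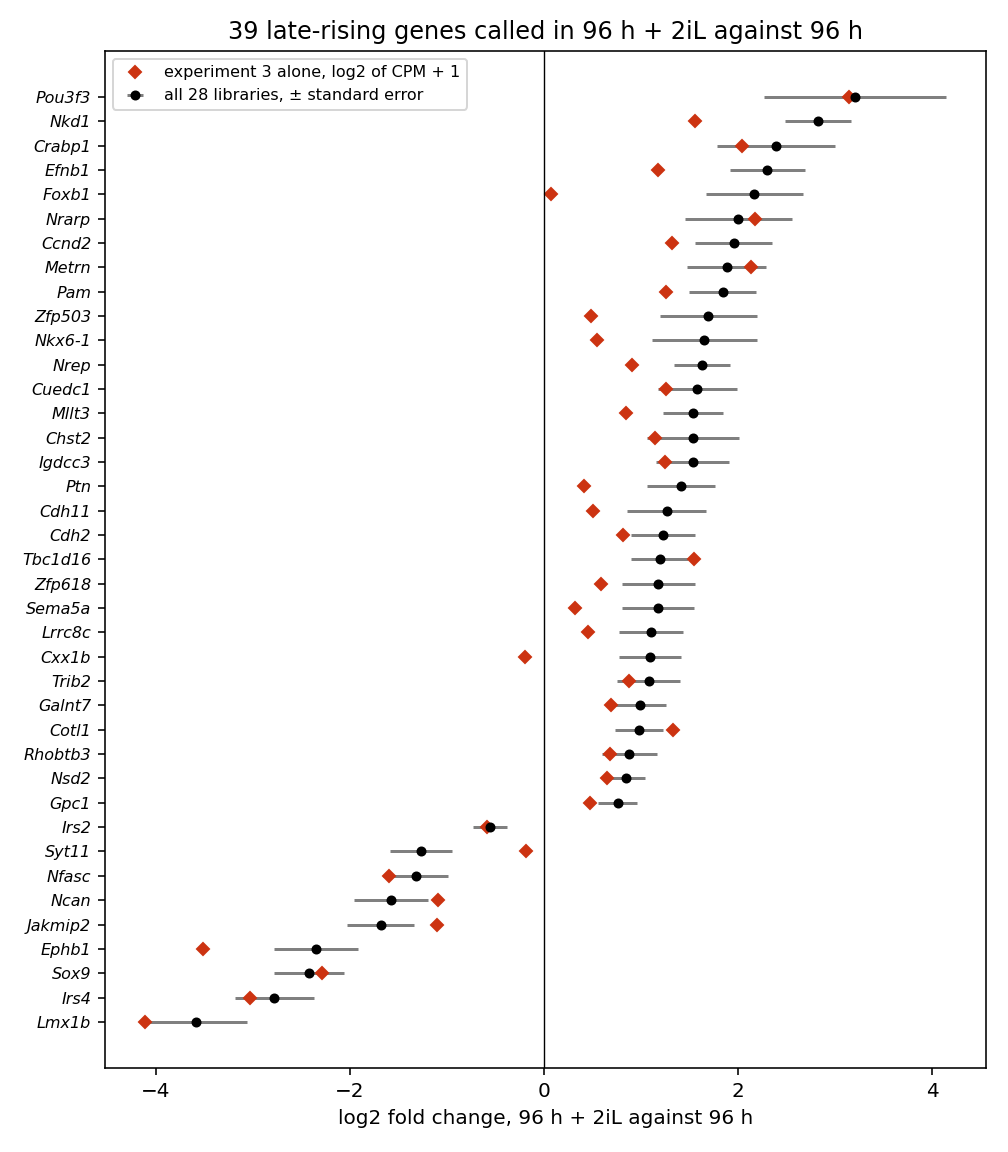
Log2 fold change of 96 h + 2iL against 96 h for the 39 late-rising genes called, as fitted over all libraries (black, bars are standard errors) and in experiment 3 alone (red, log2 of CPM plus 1). The 9 genes called lower run from -3.58 (Lmx1b) to -0.55 (Irs2), the 30 called higher from 0.76 (Gpc1) to 3.21 (Pou3f3), and Cxx1b is the gene called higher whose change in experiment 3 is below 0.

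Of 36 transcription factor genes among the 208, 5 rose and 2 fell in 96 h + 2iL against 96 h. The shares over all genes tested were 4.02% higher and 5.23% lower. Roles were assigned after the values were seen, for the order of description, and counts by role were not tested. Lmx1b, a LIM homeobox factor of the midbrain floor and roof plate, was at 18.7, 12.5, 51 and 36.2 CPM at 96 h, 22, 22.9, 24.9 and 33.8 at 120 h and 0.994, 2.91, 2.01 and 3.77 in 96 h + 2iL, and fell (-3.58 ± 0.53, adjusted p = 1.95e-05). Sox9, a factor of neural progenitors and neural crest, was at 25.6, 36.4, 99.2 and 69.8 CPM at 96 h, 36.9, 69.8, 37.9 and 56.5 at 120 h and 6.95, 5.41, 19.6 and 11.3 in 96 h + 2iL, and fell (-2.42 ± 0.36, adjusted p = 2.67e-05). For both, no library of 96 h + 2iL reached the range of either withdrawn group, and both kept their call in 17 of 17 alternatives.

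Foxb1, a forkhead factor of the neural tube, went the other way. It was at 4.2, 1.96, 72.1 and 15.6 CPM at 96 h, 45.2, 65.7, 70.3 and 85.1 at 120 h and 118, 118, 75.7 and 100 in 96 h + 2iL, and rose (2.17 ± 0.50, adjusted p = 0.00424). The 96 h value of experiment 3 lay close to its value in 96 h + 2iL, while the other 3 experiments were far lower at 96 h, and the call was lost without experiment 1, 2 or 4 and with only the 2 groups fitted (highest adjusted p = 0.0908). Nkx6-1, a homeobox factor of the ventral neural tube, was at 3.73, 9.79, 75.8 and 20.6 CPM at 96 h and 45.7, 71.5, 111 and 112 in 96 h + 2iL (1.65 ± 0.54, adjusted p = 0.0496), a call lost in 12 of 17 alternatives. Pou3f3 (3.21 ± 0.94, adjusted p = 0.0255), a POU factor of neural progenitors, was at 0.466, 0.783, 5.97 and 0.841 CPM at 96 h and was highest in experiments 3 and 4 of 96 h + 2iL (1.49, 1.25, 60.7 and 11.9 CPM) and of 120 h (4.18, 12, 97.8 and 23.7 CPM). The zinc finger genes Zfp503 (1.69 ± 0.50) and Zfp618 (1.18 ± 0.38) also rose. The calls of these 3 genes were lost without experiment 2 or 4, among other settings. They were kept in 8 of 16 alternatives for Pou3f3, 7 of 17 for Zfp503 and 8 of 17 for Zfp618.

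Sox11, a SOX factor of neural progenitors and young neurons, had the highest mean of the 208 genes at 120 h. It was at 409, 425, 1357 and 758 CPM at 96 h, 792, 1182, 1978 and 1528 at 120 h and 686, 817, 1686 and 1275 in 96 h + 2iL, and each experiment was higher in 96 h + 2iL than at 96 h. It was not called (0.61 ± 0.32, adjusted p = 0.263, with the replicate block adjusted p = 0.0559), but was called in 3 of 17 alternatives: with no filter on low counts, without experiment 3 and without only its 96 h library (lowest adjusted p = 2.77e-05).

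En1 and En2 are the engrailed homeobox genes, which mark the boundary region of midbrain and hindbrain, and both are late-rising. En1 was at 48.5, 26.2, 479.9 and 153 CPM at 96 h, 225, 351, 1147 and 572 at 120 h and 27.8, 78.2, 286 and 118 in 96 h + 2iL. In each experiment it was lower in 96 h + 2iL than at 120 h, with a ratio of means of 0.224, but the libraries of the 2 groups overlapped, and experiments differed several fold. Against 96 h it was not called (-0.44 ± 0.55, adjusted p = 0.692), and its sign turned without the 96 h library of experiment 3 (0.74). En2 was at 6.08, 8.86, 92.8 and 29.5 CPM at 120 h and 2.98, 1.66, 18.5 and 3.77 in 96 h + 2iL, a ratio of means of 0.219. Pax5, which marks the same boundary, was at 13.3, 31.8, 116 and 64.3 CPM at 120 h and 1.99, 11.2, 49.6 and 16.3 in 96 h + 2iL, and Otx1, of the forebrain and midbrain, at 19.8, 79.2, 156 and 84.1 and 4.97, 8.32, 70.7 and 22.6 CPM. Against 96 h, En2 (1.41 ± 0.85, adjusted p = 0.338), Pax5 (0.60 ± 0.68, adjusted p = 0.655) and Otx1 (-0.53 ± 0.69, adjusted p = 0.706) were not called. Pax5 and Otx1 were each called in 1 of 17 alternatives, without the 96 h library of experiment 3. The Iroquois genes Irx1, Irx3 and Irx5 stood in 96 h + 2iL at 0.902, 0.582 and 0.499 of their 120 h means.

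**Figure D4:**
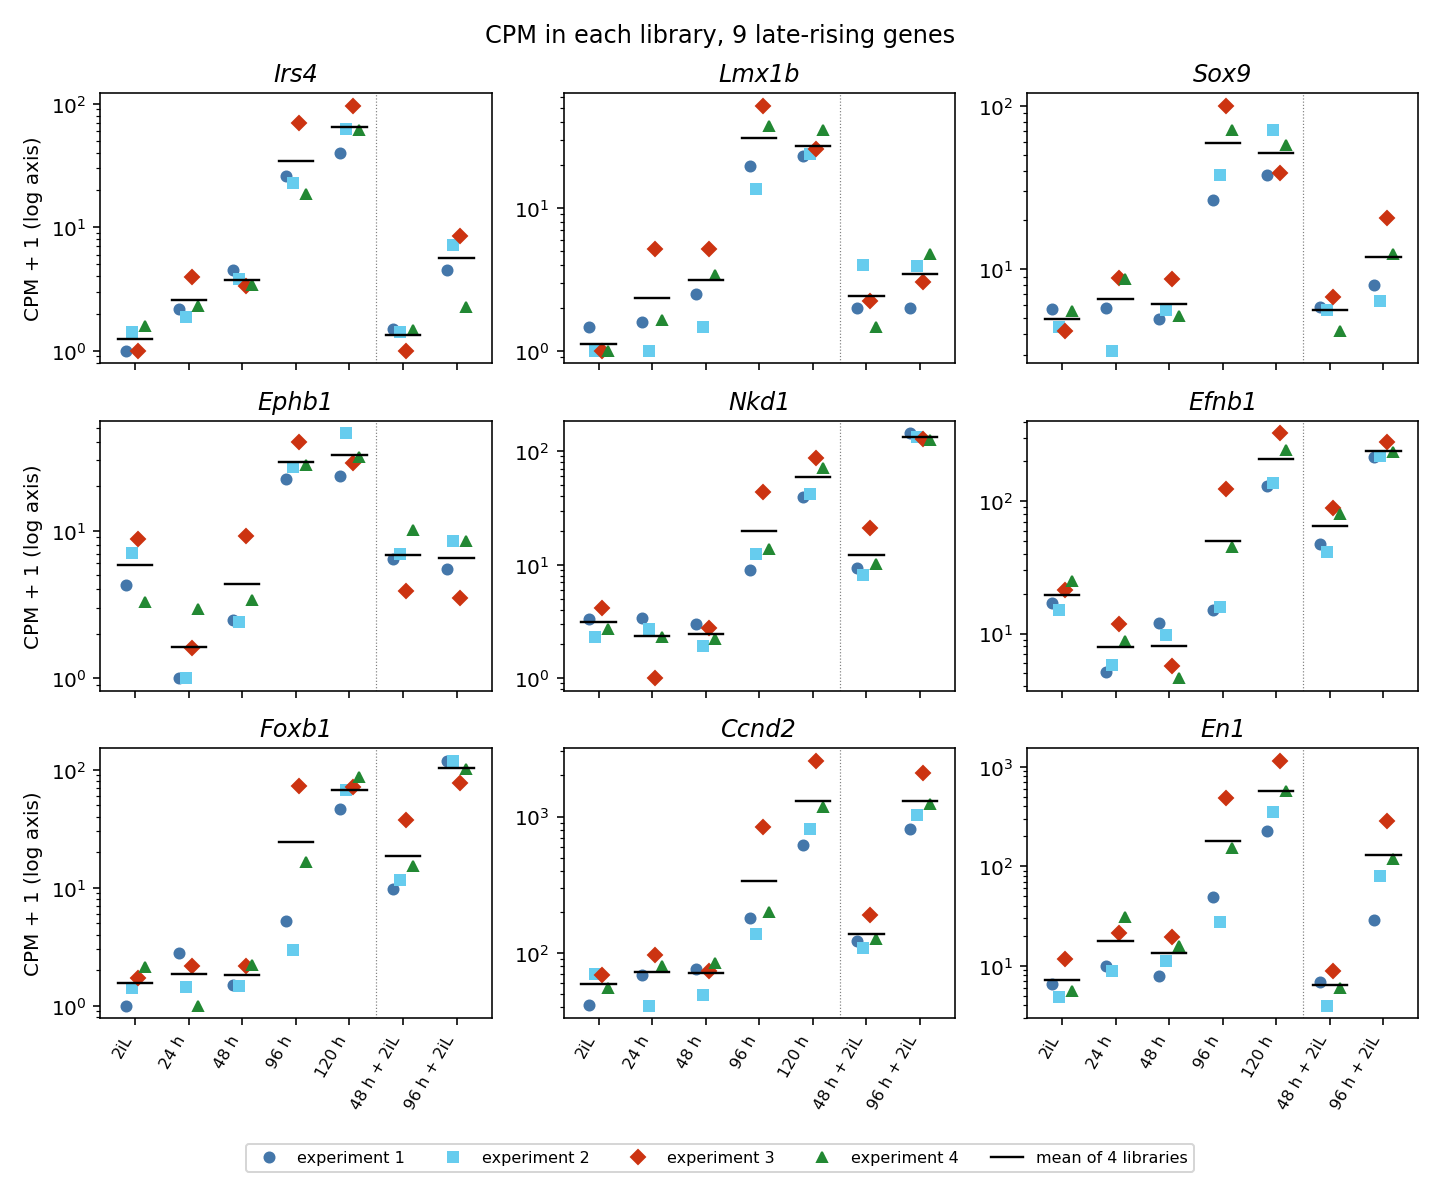
CPM plus 1 (log axis) of 9 late-rising genes in each of the 28 libraries, by group, with 1 symbol per experiment and a bar at the group mean; a dotted line separates withdrawal from return of 2iL. Irs4, Lmx1b, Sox9 and Ephb1 are low in 96 h + 2iL in 4 of 4 experiments, Nkd1 is higher there than in any other group, and experiment 3 is the highest at 96 h in each of the 9 panels.

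Nkd1, an inhibitor that WNT signalling induces and that binds Dishevelled, was the late-rising gene with the lowest adjusted p (2.83 ± 0.34, adjusted p = 9.59e-07). It was at 1.99, 0.926, 1.77 and 1.2 CPM at 48 h, 7.93, 11.4, 42.7 and 12.6 at 96 h, 38.4, 40.7, 85.3 and 69.6 at 120 h, 8.32, 7.19, 20.3 and 9.16 in 48 h + 2iL and 143, 131, 127 and 123 in 96 h + 2iL. In 2iL it was at 2.35, 1.29, 3.18 and 1.72 CPM. What raised Nkd1 in 96 h + 2iL was not tested. The 4 libraries of 96 h + 2iL lay within 123 to 143 CPM, above every other library of the series. It is the only member on a list of 11 tested WNT and beta-catenin targets, of which 9 were called higher and 0 lower in 96 h + 2iL against 96 h (median log2 fold change 2.83), among them Axin2 (2.09 ± 0.34), Sp5 (3.69 ± 0.48) and Cdx2 (7.11 ± 0.70). Of 13 MEK and ERK targets 1 was called higher and 5 lower, among them Dusp6 (-2.87 ± 0.30). Over all genes tested 4.02% were called higher and 5.23% lower.

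Among 10 genes for secreted signals and their modulators, 3 rose and 0 fell, beside 4.02% and 5.23% of all genes tested. Ptn, the growth factor pleiotrophin, was at 90, 74.8, 468 and 136 CPM at 96 h, 417, 412, 924 and 691 at 120 h and 365, 431, 625 and 604 in 96 h + 2iL, and rose (1.42 ± 0.35, adjusted p = 0.00817). Metrn, the secreted factor meteorin, was at 28, 33.3, 71.2 and 46.7 CPM at 96 h and 47.7, 69, 315 and 231 in 96 h + 2iL (1.88 ± 0.41, adjusted p = 0.00276), with experiments 3 and 4 far above experiments 1 and 2 at the later point. The call of Ptn was lost without experiment 2 (highest adjusted p = 0.161) or 4, and that of Metrn without experiment 4 (adjusted p = 0.0858). Gpc1, the proteoglycan glypican 1, rose (0.76 ± 0.20, adjusted p = 0.0129). Nrarp, a feedback inhibitor of Notch signalling, rose (2.00 ± 0.55, adjusted p = 0.0167), and lost its call without experiment 2 or 4, as Gpc1 did, while the Notch-related genes Dtx4 (0.70 ± 0.32) and Maml3 (-0.26 ± 0.36) were not called.

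Wnt7b, a WNT ligand of the neural tube, had few counts before 96 h. It was at 0, 0, 29.9 and 2.94 CPM at 96 h, 13.3, 27.1, 67.3 and 23.7 at 120 h and 1.49, 1.25, 7.02 and 0.629 in 96 h + 2iL, so that each experiment was lower in 96 h + 2iL than at 120 h. Against 96 h it was not called (-1.58 ± 0.91, adjusted p = 0.318), and its sign turned without experiment 3 (0.21). Frzb, a secreted WNT antagonist, stood near 0 up to 48 h and in 48 h + 2iL (0.49, 0, 0 and 0.458 CPM). It was at 10.3, 9.4, 68 and 25.7 CPM at 96 h, 32.3, 33.9, 36.9 and 51.7 at 120 h and 20.9, 32.4, 31.1 and 37.7 in 96 h + 2iL, and these 3 groups overlapped.

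Of 25 genes for adhesion, guidance and matrix, 5 rose and 3 fell, beside 4.02% and 5.23% of all genes tested. Efnb1 (chromosome X, 99136130 to 99148991, forward strand), the ligand ephrin B1, rose (2.30 ± 0.39, adjusted p = 0.000146), from 14, 14.9, 123 and 44.2 CPM at 96 h to 217, 220.0, 278 and 234 in 96 h + 2iL, with 130.0, 136, 326 and 242 at 120 h. Ephb1 (chromosome 9, 101922128 to 102354693, reverse strand), a receptor of B-type ephrins, fell (-2.35 ± 0.43, adjusted p = 0.000456), from 21.4, 25.9, 39 and 26.9 CPM to 4.47, 7.49, 2.51 and 7.54, with 22.4, 44.8, 27.9 and 30.4 at 120 h and 3.29, 6.01, 7.78 and 2.29 in 2iL. For Ephb1 the 96 h + 2iL libraries overlapped those of 2iL and lay below every library of 96 h and 120 h. A pair of ligand and receptor of one family moved in opposite directions. The other 3 members of the family, Efna2, Efna5 and Epha7, were not called (0.21 ± 0.40, -0.20 ± 0.32 and 0.90 ± 0.42).

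The neural cadherin gene Cdh2, whose product replaces E-cadherin in the neural plate, rose (1.23 ± 0.33, adjusted p = 0.0139), from 17.3, 14.1, 56.9 and 32 CPM to 33.3, 56.1, 101 and 89.9, with 49, 64.6, 97.8 and 58 at 120 h. Cdh11 rose (1.26 ± 0.40, adjusted p = 0.0432). The calls of Cdh2 and Cdh11 were lost without experiment 2 or 4, among other settings. Cdh2 kept its call in 10 of 17 alternatives and Cdh11 in 6. Cdh4 and Cdh6 were not called (-1.09 ± 0.38 and -1.30 ± 0.63). With the replicate block Cdh4 was called lower (adjusted p = 0.0247). Cdh6 had 0 counts in 2iL and was at 2.33, 2.35, 42.7 and 6.73 CPM at 96 h, 26.6, 32.3, 34.4 and 15.5 at 120 h and 5.46, 1.66, 6.02 and 8.8 in 96 h + 2iL, and its fitted sign turned without experiment 3 (0.40). These 4 are among 9 tested genes whose symbols are Cdh and a number, a family picked after the members were seen. Of all genes tested, 1.88% are late-rising.

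Igdcc3 and Prtg encode related immunoglobulin-family receptors of the early neuroepithelium. Igdcc3 rose (1.53 ± 0.38, adjusted p = 0.00737), from 66.7, 64.6, 281 and 111 CPM to 191, 243, 670.3 and 394, and was at 189, 283, 848 and 550.4 at 120 h. Prtg, at 132, 121, 608 and 220.0 CPM at 96 h and 388, 396, 681 and 698 in 96 h + 2iL, was not called (1.02 ± 0.35, adjusted p = 0.0674), nor was the teneurin gene Tenm4 (0.73 ± 0.39). Both were called with the replicate block (adjusted p = 0.000219 for Prtg and 0.0231 for Tenm4), with no filter on low counts and without experiment 3, Prtg in 5 and Tenm4 in 4 of 17 alternatives. The guidance gene Sema5a rose (1.18 ± 0.37). The calls of Igdcc3 and Sema5a were lost without experiment 2 or 4, among other settings. Igdcc3 kept its call in 13 of 17 alternatives and Sema5a in 6 (highest adjusted p = 0.315). Ncan, the proteoglycan neurocan, fell (-1.58 ± 0.38, adjusted p = 0.00599) and so did Nfasc, the axonal adhesion molecule neurofascin (-1.32 ± 0.33, adjusted p = 0.010), both genes that neurons express. The calls of Ncan and Nfasc were lost without experiment 4 (highest adjusted p = 0.0918), that of Ncan also without experiment 2.

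Of 16 genes for cytoskeleton, transport and synapse 1 rose and 1 fell, beside 4.02% and 5.23% of all genes tested. Cotl1, an actin-binding protein, rose (0.98 ± 0.24), with its call lost without experiment 2. Syt11, a synaptotagmin of vesicle transport, fell (-1.27 ± 0.32, adjusted p = 0.00963), lost its call without experiment 1, 2 or 4, and was lower in 96 h + 2iL than at 120 h with a ratio of means of 0.441. The kinesin gene Kif1a (-0.54 ± 0.23), the drebrin gene Dbn1 (-0.01 ± 0.23) and the microtubule gene Map2 (-0.27 ± 0.31) were not called. Jakmip2, which is expressed in neurons, fell (-1.68 ± 0.35, adjusted p = 0.00146). On a list of 14 tested neuron genes, of which Map2 is late-rising, 4 were called lower (Crmp1, Elavl3, Ina, Neurod1) and 0 higher (median log2 fold change -0.27). The list summed to 803 to 905 CPM at 96 h and 649 to 872 in 96 h + 2iL.

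Ccnd2, the G1 cyclin D2, had the second highest mean at 120 h and rose (1.95 ± 0.40, adjusted p = 0.00134). It was at 179, 136, 839 and 199 CPM at 96 h, 617, 805, 2567 and 1179 at 120 h and 815, 1031, 2094 and 1233 in 96 h + 2iL, with a ratio of means to 120 h of 1.0. The call was lost without experiment 4 (adjusted p = 0.0598). Pam, an enzyme that amidates neuropeptides (1.85 ± 0.35, adjusted p = 0.000553), Mllt3, a subunit of the super elongation complex (1.54 ± 0.31, adjusted p = 0.00118), and Nrep (1.63 ± 0.29, adjusted p = 0.000248) rose and kept their calls in 17 of 17 alternatives. Nsd2, a histone methyltransferase, rose (0.84 ± 0.20, adjusted p = 0.00599), with its call lost without experiment 2 or 4.

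Crabp1, which binds retinoic acid in the cytoplasm, rose (2.39 ± 0.61, adjusted p = 0.00949), but was at 23.8, 20, 56.9 and 40 CPM at 96 h and 23.3, 15, 237 and 465 in 96 h + 2iL, so that experiments 1 and 2 were not higher after the return. Its call was lost without experiment 4 (adjusted p = 0.313). The fatty acid binding gene Fabp5 was not called (0.28 ± 0.22).

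Cells given 2iL for the same 24 h after different times without it are compared in 96 h + 2iL and 48 h + 2iL. The 2 groups also differ in total age. Neither entered the choice of the genes, but the choice asked for low levels at 48 h, where the 48 h + 2iL cells started. It also asked for high levels at 120 h, the age of the 96 h + 2iL cells. Both favour higher levels in 96 h + 2iL, so the counts are read as a description. Of the 208 genes, 195 were called higher in 96 h + 2iL (93.8%), against 12.9% of all genes tested, and 0 were called lower, against 11.2%. The count lower was also 0 at an unadjusted p under 0.05 and 0 with DESeq2. The median log2 fold change was 2.27 (quartiles 1.70 to 3.11), against -0.01 over all genes tested. The lowest adjusted p belonged to Dtx4 (4.72 ± 0.43, adjusted p = 3.89e-09), the carbonic anhydrase gene Car14 (3.27 ± 0.30), Kif1a (3.28 ± 0.29) and Dbn1 (2.89 ± 0.27). Frzb differed most among these leading genes (6.71 ± 0.71). The imprinted membrane protein gene Nnat (2.88 ± 0.31) and the septin gene Sept3 (2.57 ± 0.28) were also higher.

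The 13 genes not called included Sox9 (1.14 ± 0.44, adjusted p = 0.0554), Lmx1b (0.67 ± 0.71), En2, Dmrta2, Ephb1 (-0.13 ± 0.48), Wnt7b, Rspo3, Fst, Map2, Nrcam, Stxbp4 and Dcaf12l1. Sox9 was called higher in 8 of 17 alternatives (lowest adjusted p = 0.0145), and the replicate block called Sox9 (adjusted p = 0.0363), Dmrta2 (0.0343), Rspo3 (0.0330) and Wnt7b (0.0173). For 3 of the 13, Fst and Ephb1 included, the fitted change lay below 0. Fst, the activin antagonist follistatin, was at 29.9, 33, 56.6 and 37.6 CPM in 48 h + 2iL and 45.7, 51.6, 9.02 and 10.7 in 96 h + 2iL, against 4.96, 4.63, 8.84 and 6.58 at 48 h.

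In 48 h + 2iL the median ratio to 48 h was 1.28 (group means plus 1), and over all genes tested it was 1.03. The 48 h values entered the choice, so this is a description. In 9 of the 208 genes the ratio was 4 or more, a count with no share over all genes beside it. Foxb1 was highest at 10.1, from 48 h values near the floor, where 1 count equals 0.354 to 0.643 CPM. Foxb1 was at 0.496, 0.463, 1.18 and 1.2 CPM at 48 h and 8.81, 10.6, 36.8 and 14.2 in 48 h + 2iL, and Nkd1 (4.95) and Efnb1 (8.07) were also among the 9.

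Lists of cell type markers are set beside the genes as a description. They were chosen with earlier results of these data known, so they do not place the genes in a tissue. In 96 h + 2iL against 96 h, 4.02% of all genes tested were called higher and 5.23% lower. Of 23 tested genes of radial glia and neural progenitors, 9 are late-rising (Cdh2, Metrn, Msi1, Pou3f3, Prom1, Ptn, Ptprz1, Sox21, Sox9). In 96 h + 2iL against 96 h, 5 of the 23 were called higher and 4 lower (median log2 fold change 0.08), and the list summed to 1479 to 2647 CPM at 96 h and 1887 to 3458 in 96 h + 2iL. Of 15 tested midbrain and hindbrain genes, 7 were called higher and 1 lower (Lmx1b; median log2 fold change 1.42), and none of the 7 is late-rising: they include Hoxb1 (6.99 ± 1.06), Gbx2 (2.25 ± 0.39) and Fgf8 (3.74 ± 0.83). Of 5 forebrain genes 0 were called higher and 2 lower (Otx2, Lhx5), and Nkx2-1 and Dlx1 were listed at 0 at 120 h.

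Of 7 neural crest genes 2 were called higher and 1 lower, with Sox10 at 0 at 120 h and sums of 40.9 to 62.3 CPM there. Of 9 mesoderm genes 1 was called higher (T) and 0 lower. Of 6 endoderm genes 0 were called in either direction, and Afp, Ttr and Sox7 were at 0 at 120 h. Over all genes tested in 96 h + 2iL against 96 h, 4.02% were called higher and 5.23% lower.

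The 208 genes are 1.88% of the genes tested. Counted by family, with the families picked after the members were seen, they include both engrailed genes tested, both Flrt genes tested, 3 of 4 Iroquois genes, 3 of 4 Dpysl genes, whose products steer growth cones, and 5 of 16 ephrin and ephrin receptor genes, and also 2 of 4 POU3 genes, 3 of 11 SOX genes, 2 of 13 semaphorin genes and 8 of 275 zinc finger genes named Zfp. The family totals also hold genes that met both thresholds but were left out by name, in the POU3 and SOX families among others. On the X chromosome lie 13 of the 208 (6.25%), against 3.45% of the genes tested. The median gene span was 45522 bases, against 24707 over the genes tested. Neighbouring pairs within 1 Mb of each other number 16, the closest being Enho and Cntfr on chromosome 4 (17173 bases apart). Exonic bases of Irs2, Foxb1, Ccnd2, Wnt7b and Ephb1 overlap a gene on the opposite strand, and that of Ephb1, Gm26846, had a count in 0 of 28 libraries. Ndn and Peg12, imprinted neighbours on chromosome 7, are 111608 bases apart. These shares were not tested.

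RefSeq promoter windows of 300 bases, 250 before and 50 after a start, were matched for 145 of the 208 genes (194 windows). Motifs of 4 factor families were searched on both strands, each by its letters. The TCF and LEF motif CTTTGAT was in 3.09% of the windows, in 2.45% of 11155 windows of genes tested and in 3.73% of all 32851 windows. The SOX motif ACAATG was in 7.22%, 7.05% and 12.6%, and the Ephb1 window holds it. The octamer ATGCAAAT was in 1.55%, 1.31% and 1.74%, and the RBPJ motif GTGGGAA in 4.64%, 5.92% and 6.38%. The median GC content of the windows was 64.8%, against 61.3% for genes tested. Windows with 10 or more CG dinucleotides made up 73.7%, against 81.9%.

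Near the thresholds, the genes just inside 20 CPM at 120 h were Rassf2 (20.3), Aig1 (20.3) and Smo, the Hedgehog transducer (20.4), and those just outside were Selenon (19.9), Crb2 (19.8) and Gdpd1 (19.7). Just inside 4 times stood Fst (4.02), Paqr4 (4.06) and Dtna (4.07), and just outside Soat1 (3.99), Vezf1 (3.97) and Sox13 (3.96).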

How the data were processed

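RNA of E14 stem cells (28 libraries, 7 groups of 4) was sequenced from transcript 3′ ends. Per the submitters' processing notes, bcl2fastq, STAR 2.6.0a and HTSeq were used with the mm10 build, in roles and with a strand setting not given in the sources used here. The deposited count files hold raw counts per gene for 31053 genes, and 52.3% to 60.1% of what they list stands in a row for alignments that were not unique, outside the gene rows. How uniqueness was defined there is not given in the sources used here. The deposited CPM table holds 30386 genes. In 28 of 28 columns its values equalled the counts scaled to CPM within a tolerance of 1e-06, and 0 pairs of libraries were identical. The deposited CPM chose the members and gives the printed levels.

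Counts were fitted with edgeR 4.0.16 in R 4.3.3: a single quasi-likelihood fit to 28 libraries with group means as its terms, TMM scaling, filterByExpr by group (11080 genes tested), two-sided tests and Benjamini-Hochberg adjustment, called at an adjusted p under 0.05. Each standard error was taken from the log2 fold change and the F statistic of its test (size of the change over the root of F). DESeq2 1.42.0 was an alternative. The scripts were tested on simulated data. Each title carries an experiment number, read as marking a shared experiment. Deviations of libraries with the same number correlated at 0.026 to 0.41 between 96 h + 2iL and 96 h and at 0.092 to 0.099 between 96 h + 2iL and 48 h + 2iL.

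Members and gene lists were chosen with earlier results of these data known. Named genes are Irs4, the 12 members highest at 120 h, the 10 with the largest ratio of 120 h to the early groups, the 8 highest and 8 lowest ratios of 96 h + 2iL to 120 h, the 8 lowest adjusted p in each direction of each test, genes beside the thresholds, called genes of the insulin and IGF list, and others ordered by role. Symbols of the Gm, Rik and mt- kinds and 11 named genes were left out of the members by rule. Positions are from GENCODE M21. Exonic bases of 58 members overlap a gene on the opposite strand and of 6 another gene on the same strand, where reads may not be told apart. Some named genes are not reported here.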

Additional observations from a re-analysis of the deposited data

Results flagged for a closer look

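In 156 pairs of a named gene and a group, 19 had a library far from the other 3, where about 5% would by chance alone, and all 19 are of experiment 3. In 18 of them experiment 3 is the highest. At 96 h these are Ccnd2 (839 CPM, the others 136 to 199), Ptn (468), Pea15a (174), Otx1 (136, the others 3.73 to 9.79), Irs4 (68.9, the others 17.7 to 25.2), Ildr2 (62.5), Ajap1 (58.8), Nkd1 (42.7), Cdh6 (42.7), Pax5 (42.3), Fndc3c1 (33.1) and Wnt7b (29.9). In 96 h + 2iL they are Fabp5 (277), Pea15a (196), Kif1a (91.7), En2 (18.5) and Wnt7b (7.02), and at 120 h Nsd2 (248). Nfasc, the axonal adhesion gene, is instead lowest in experiment 3 at 120 h (19 CPM, the others 32.8 to 34.8). Groups tested hold only 4 libraries, and the named genes are not independent of each other.

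For Fabp5 and for Pea15a the change after 96 h had the opposite sign to that after 48 h, the pattern for which they were flagged. Neither was called in 96 h + 2iL against 96 h (adjusted p = 0.480 for Fabp5 and 0.459 for Pea15a), nor in any of 17 alternatives. Returned cells are also 24 h older than the cells they are set against. Fabp5 was higher in 96 h + 2iL than at 96 h and lower in 48 h + 2iL than at 48 h in 4 of 4 experiments, and the mean log2 change after 96 h exceeded that after 48 h by 0.44. For Pea15a, a small phosphoprotein that binds ERK, the difference was 0.80, also with 4 of 4 experiments in each direction. The difference itself was not tested for either gene.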

How the results depend on the processing

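The number of late-rising genes was 127 with 5 CPM added to the means in place of 1, 112 with a 120 h mean of 40 CPM and 79 with 8 times each early group, and from 166 to 310 in the other settings (166 with TMM scaling, and 216 where 20 CPM applied to the mean plus 1, a reading added after seeing the data). The median of 96 h over 120 h was 0.427 at 8 times.

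Members called in 96 h + 2iL against 96 h numbered 65 higher with no filter on low counts, 16 with only the 2 groups compared and 58 with the replicate block, and 7 to 69 higher and 5 to 12 lower with 1 experiment or library left out. Over all genes, 277 were called higher with only the 2 groups, and 145 to 611 higher and 209 to 712 lower with 1 left out. In 96 h + 2iL against 48 h + 2iL, 931 to 1442 genes were called higher and 722 to 1269 lower with 1 left out. The replicate block moved no other count by over 1.5 times. It shared 39 called members with the fit without it.

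Among 1418 values of single named genes, 1336 kept direction and call, 24 gained a call, 49 lost one and 9 changed sign. With 1 experiment or library left out, the log2 fold change against 96 h ranged from -1.22 to 0.74 for En1 (above 0 without the 96 h library of experiment 3), from -0.013 to 0.43 for Fabp5 (below 0 without the 96 h + 2iL library of experiment 3), from -2.71 to 1.34 for Wnt7b (1.34 without the 96 h library of experiment 3, 0.21 without experiment 3) and from -1.84 to 0.46 for Cdh6 (0.46 and 0.40 in the same settings). Against 48 h + 2iL, Ephb1 ranged from -0.36 to 0.18, being 0.001 without experiment 4, 0.11 without the 96 h + 2iL library of experiment 3 and 0.18 without the 48 h + 2iL library of experiment 4. The cause was not tested. The experiments differ several fold, and 55 of the 169 genes not called against 96 h were called in at least 1 alternative, so a missing call does not show that a gene kept its level.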
